A study of Mus musculus with 12 samples.

Results

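The question here was whether the change in gene expression from mouse kidney tissue to cultured progenitor cells depended on the region of the kidney from which the cells came. The quantity examined was the interaction, the medulla-derived minus cortex-derived difference among progenitor cells less the medulla minus cortex difference in tissue. It equals the tissue-to-culture change in medulla less that in cortex. It used 8 of the series' 12 arrays, with 2 arrays in each of 4 groups: cortex tissue, medulla tissue, cortex-derived progenitor cells and medulla-derived progenitor cells. It was computed for 12696 of the 18193 genes that had a probe set naming them alone, namely those bright enough to test. The labels give region and cell source for each group but no strain, age, sex or treatment. The progenitor cells, derived from either region, were grown on fibroblast feeder cells, so a culture array can also hold feeder RNA. Replicates are called biological, and nothing says whether an equal replicate number in different groups means a shared animal or culture.

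The cortex of the kidney holds the glomeruli and most of the proximal tubule, which reabsorbs filtered sugars, amino acids and phosphate. The medulla holds the loops of Henle and the collecting ducts, which concentrate urine with the help of urea, and ends in the papilla, whose surface adjoins the urothelium of the renal pelvis. Tubular cells placed in culture are known to lose transporters and metabolic enzymes and to start dividing.

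The regional labels could be read in the tissue arrays through few genes. The inner medullary urea transporter Slc14a2 lay at 6.003 and 5.941 in the cortex tissue arrays and at 12.689 and 10.840 in the medulla tissue arrays. These are values of log2(signal + offset), the scale of all levels and differences below. The probe set was bright enough to test through medulla tissue alone. Another bright probe set of Slc14a2 disagreed with it in the interaction (0.12 against -5.15). The proximal endocytic receptor Lrp2 lay at 14.14 and 14.34 in cortex tissue and at 14.07 and 14.29 in medulla tissue. The 2 regions thus overlapped in Lrp2. The mean level of 22 proximal convoluted tubule genes was 13.25 and 13.16 in cortex tissue and 12.41 and 13.05 in medulla tissue, so the tissue labelled medulla also carried proximal tubule RNA. In culture Lrp2 lay between 4.12 and 4.99 on all 4 arrays. The medulla tissue replicates also differed from each other, with a mean level of the thin limb and inner medulla list of 11.60 and 10.37, against 8.80 and 8.85 in cortex tissue.

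The change from tissue to culture was large in each region and of like size. In cortex, 9292 of 12696 genes (73.2%) passed limma's test at a Benjamini-Hochberg adjusted p of 0.05, of which 4761 (37.5%) rose and 4531 (35.7%) fell. In medulla, 9219 genes (72.6%) passed, of which 4649 (36.6%) rose and 4570 (36%) fell. Of the 8284 genes called in both regions, 4194 rose in both, 4070 fell in both, and 20 moved in opposite directions. The 2 changes share no array, and across the 12696 genes they correlated with r of 0.969 (Spearman's rho 0.955), which describes these arrays because genes are not independent replicates.

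The change differed between regions for 67 genes (0.528%). In 40 of them (0.315%) the change was higher in medulla, and in 27 (0.213%) it was lower. At an unadjusted p of 0.05 the same test passed 1688 genes. All 67 had the 4 single-array medulla minus cortex differences in culture wholly above or wholly below the 4 in tissue. Such separation was also seen in 1785 genes (14.1%) upwards and 1907 genes (15%) downwards among all genes tested. For 7995 genes (63.0%) the unadjusted 95% interval of the interaction lay wholly within a 2-fold difference in either direction. For those genes a larger region dependence was outside the interval, and for the other genes the interval reached beyond a 2-fold difference. The median standard error was 0.24, and for 5% of genes it was above 0.57.

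**Figure D1:**
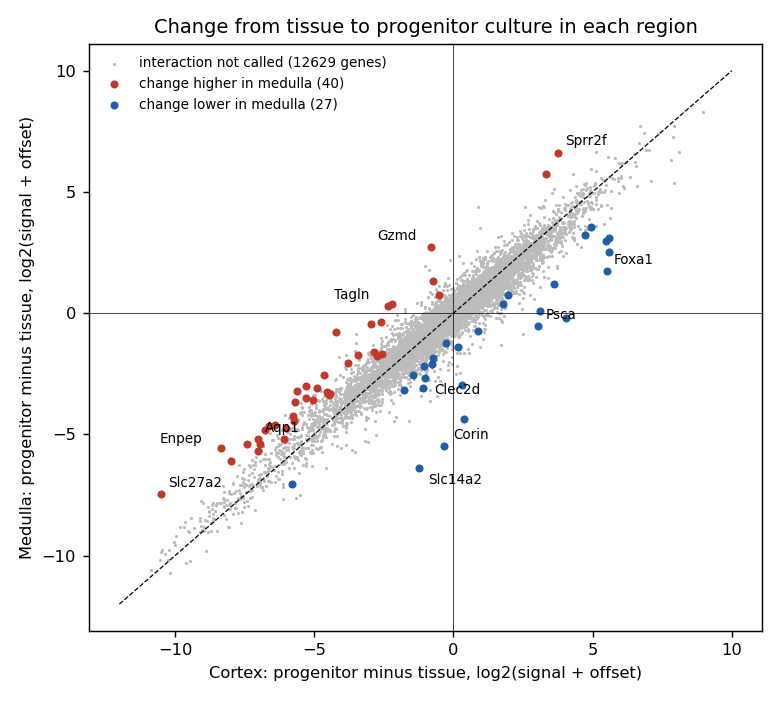
Change from tissue to progenitor culture in cortex (x axis) and in medulla (y axis) for 12696 genes, as differences of group means of log2(signal + offset), with 2 arrays in each group. Points near the dashed line changed alike, and the 40 red and 27 blue genes passed the test of the interaction.

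The count of 67 moved by more than 1.5 times when any array but medulla tissue replicate 1 was left out. It was 568 without medulla tissue replicate 2, the array with the lower Slc14a2 signal, and 64 without medulla tissue replicate 1. It was 19 without cortex tissue replicate 1, 21 without cortex tissue replicate 2, 10 without cortex-derived progenitor replicate 1 and 33 without replicate 2 of that group. It was 3 without medulla-derived progenitor replicate 1 and 29 without replicate 2 of that group. Without medulla tissue replicate 2 all 67 genes kept their call. In each of these fits the group left with 1 array was assumed to vary like the others. Of the 22 genes named by rule below that passed the test, only Enpep kept its call under all 20 alternative settings, while 5 lost it in 1 to 5 settings and 16 in 6 to 13.

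**Figure D2:**
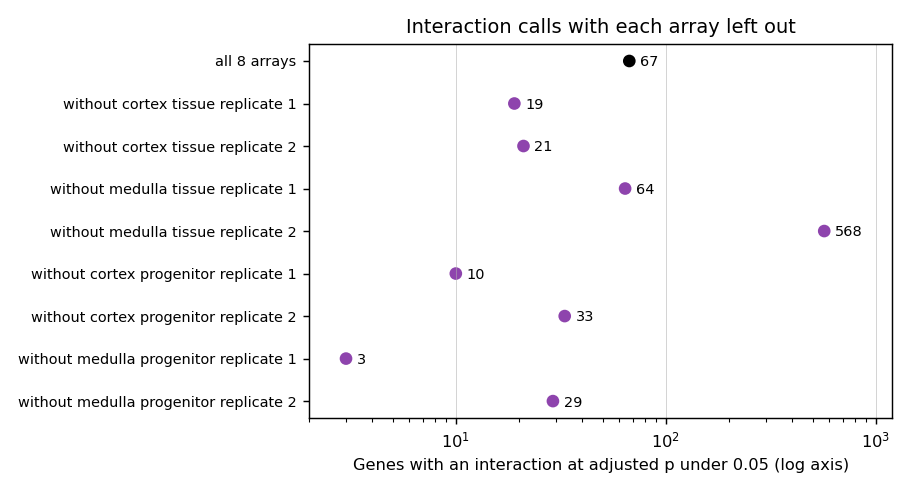
Number of genes whose tissue-to-culture change differed between regions at adjusted p under 0.05 (log axis), with all 8 arrays and with each array left out. The count was 67 with all arrays and lay between 3 and 568 with 1 array left out.

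The regions could differ in tissue, in culture or in both. The tissue region difference passed the test for 26 genes (0.205%), 25 of them (0.197%) higher in medulla and 1 (0.00788%), the kinase gene Ikbke, lower, and the culture region difference for 101 genes (0.796%), with 78 (0.614%) higher in medulla-derived and 23 (0.181%) higher in cortex-derived cells. None of the 25 genes higher in medulla tissue was called in culture, where 14 of them (56%) had the same sign, against 51% of all genes tested. Their median region difference was 0.03 in culture against 2.34 in tissue. The tissue median follows largely from the choice of these genes by their tissue call. In culture, 5 of the 25 were not bright enough in either group. None of the 78 genes higher in medulla-derived cells was called in tissue. Of the 67 genes with an interaction, 14 were called for region in tissue alone, all with a lower change in medulla, 46 in culture alone, and 7 in neither. A gene not called in one of the stages is not thereby shown to lack a region difference there. Without medulla tissue replicate 2, the tissue region difference passed for 905 genes and the class called in tissue alone held 418. That class held 19 without medulla tissue replicate 1, 6 and 7 without cortex tissue replicates 1 and 2, 1 and 6 without cortex-derived progenitor replicates 1 and 2, and 0 and 8 without medulla-derived progenitor replicates 1 and 2. The culture region difference passed for 165 genes without medulla tissue replicate 1, 162 without replicate 2, 45 and 49 without the cortex-derived and 43 and 39 without the medulla-derived replicates.

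**Figure D3:**
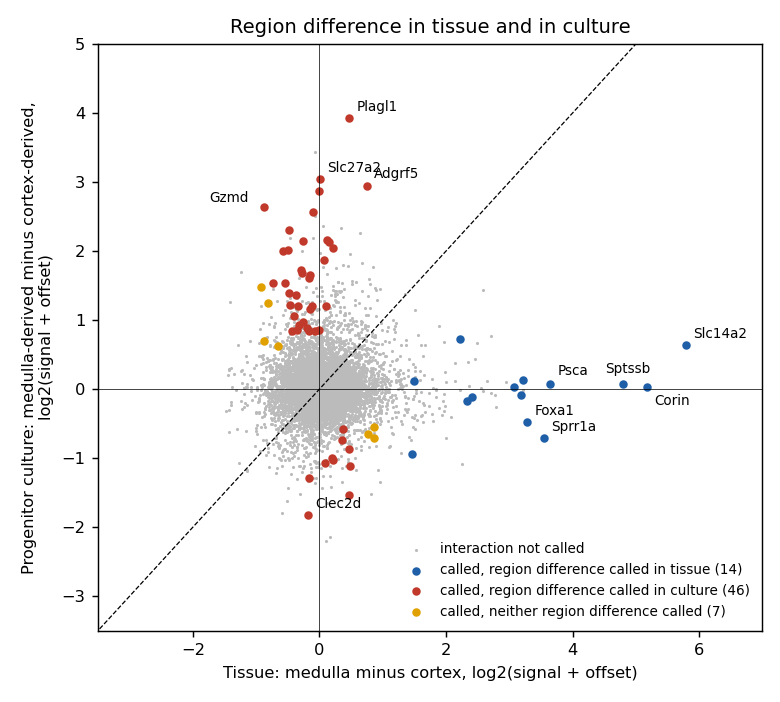
Medulla minus cortex difference in tissue (x axis) and in progenitor culture (y axis) for each gene tested, as log2(signal + offset). Of the genes called in the interaction, 14 passed the region test in tissue alone, 46 in culture alone, 7 in neither and 0 in both.

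Promoter sequences are given for 4 genes that stand for the groups described next: Slc27a2 and Enpep, which fell less in medulla, and Upk3b and Foxa1, which were higher in medulla tissue and not called for region in culture. Each is the run of 250 bases upstream of the RefSeq start (GRCm38.p6), written 5′ to 3′ on the gene's strand. Capitals mark CCACCC, a KLF core, or CAAAGT, an HNF4 core, on either strand. The reverse complement of the first reads GGGTGG, and no GTTAAT, an HNF1 half-site, was found in these windows. The windows are chr2:126552774-126553023 (plus strand), chr3:129332750-129332999 (minus), chr5:136038246-136038495 (plus) and chr12:57546112-57546361 (minus).
Slc27a2: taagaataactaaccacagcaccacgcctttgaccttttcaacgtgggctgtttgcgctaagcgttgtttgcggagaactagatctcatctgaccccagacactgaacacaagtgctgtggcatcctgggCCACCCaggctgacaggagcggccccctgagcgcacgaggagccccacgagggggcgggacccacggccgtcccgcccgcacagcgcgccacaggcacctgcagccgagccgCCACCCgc
Enpep: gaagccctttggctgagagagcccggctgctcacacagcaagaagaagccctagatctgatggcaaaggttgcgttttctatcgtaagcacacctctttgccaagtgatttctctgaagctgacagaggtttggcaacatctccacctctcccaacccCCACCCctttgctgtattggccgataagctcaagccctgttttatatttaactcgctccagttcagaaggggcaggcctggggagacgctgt
Upk3b: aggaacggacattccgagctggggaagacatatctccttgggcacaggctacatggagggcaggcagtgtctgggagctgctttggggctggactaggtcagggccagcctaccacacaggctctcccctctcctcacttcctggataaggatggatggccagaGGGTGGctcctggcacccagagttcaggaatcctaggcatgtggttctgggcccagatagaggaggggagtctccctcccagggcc
Foxa1: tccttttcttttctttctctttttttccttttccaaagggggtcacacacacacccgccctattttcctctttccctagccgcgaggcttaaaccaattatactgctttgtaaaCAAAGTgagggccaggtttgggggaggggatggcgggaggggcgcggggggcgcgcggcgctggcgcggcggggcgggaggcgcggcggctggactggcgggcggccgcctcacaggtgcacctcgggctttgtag

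CCACCC occurred 2 times for Slc27a2 and once each for Enpep and Upk3b, and in 28.1% of 32851 RefSeq windows of this length. CAAAGT occurred once for Foxa1 and in 12.6% of windows, and GTTAAT in 6.43%. A match of letters is a description and not a binding site.

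The largest group of called genes was bright in tissue of both regions and fell in both, but less in medulla. It held 31 of the 40 genes with a higher change in medulla. Their median level was 12.9 in cortex tissue and 12.8 in medulla tissue, and 6.84 in cortex-derived against 8.50 in medulla-derived cells. The median change, on which these genes were chosen, was -5.62 in cortex and -3.58 in medulla. Among all genes tested, 32.1% fell in both regions. With no variance trend 6 of 13 higher calls were of this kind. It was 2 of 3 without medulla-derived progenitor replicate 1, 17 of 18 without replicate 2 of that group and 124 of 207 without medulla tissue replicate 2.

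Slc27a2, an acyl-CoA synthetase of fatty acid activation in proximal tubule and liver is described first. It lay at 14.98 and 15.26 in cortex tissue, 14.96 and 15.29 in medulla tissue, 4.94 and 4.28 in cortex-derived cells, and 7.79 and 7.51 in medulla-derived cells. The tissue groups overlapped, whereas both medulla-derived arrays lay above both cortex-derived arrays. The change of Slc27a2 was -10.51 in cortex and -7.47 in medulla, both past the test, and the interaction was 3.04 ± 0.30 (SE, limma with Benjamini-Hochberg adjustment, adjusted p = 0.00675). With cultures near the floor, its size depended on the offset, at 4.58 with 1 signal unit and 1.75 with the median signal. The call was lost without medulla-derived progenitor replicate 1.

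Enpep encodes aminopeptidase A, a brush border enzyme that cleaves angiotensin II. Its signal was 13.39 and 13.43 in cortex tissue, 12.72 and 13.14 in medulla tissue, 5.24 and 4.86 in cortex-derived cells, and 7.16 and 7.55 in medulla-derived cells. Enpep was lower in medulla on both tissue arrays and higher in medulla on both culture arrays. Its interaction was 2.79 ± 0.27 (limma adjusted p = 0.00675).

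Aqp1, the water channel of proximal tubule and thin descending limb, lay at 13.63 and 13.83 in cortex tissue and 14.01 and 13.90 in medulla tissue. In culture it lay at 6.98 and 6.41 in cortex-derived and 8.66 and 8.83 in medulla-derived cells, and these groups did not overlap. The interaction was 1.83 ± 0.24 (limma adjusted p = 0.0144). Scnn1g, the gamma subunit of the epithelial sodium channel of the collecting duct, was at 10.91, 11.02, 10.69 and 10.91 in tissue, cortex first. Scnn1g then lay at 4.28 and 4.84 in cortex-derived cells and at 6.21 and 6.13 in medulla-derived cells. Its interaction was 1.77 ± 0.30 (limma adjusted p = 0.0407). Scnn1g did not meet the brightness criterion in either culture group, and its interaction ranged from 0.89 to 3.15 across settings. The call was lost in 12 alternative settings. These included quantile normalization, no filter, and an offset of 1 signal unit or of the median signal. With the main settings the group was therefore not made of proximal genes alone, but for Scnn1g this rests on a call that many alternatives did not keep.

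Dkk2, a secreted modulator of Wnt signalling, was at 9.63 and 10.17 in cortex tissue and 9.88 and 9.41 in medulla tissue. It lay at 4.44 and 4.13 in cortex-derived and at 6.51 and 6.37 in medulla-derived cells, an interaction of 2.41 ± 0.37 (limma adjusted p = 0.0255). The value was 4.62 with an offset of 1 signal unit, and 1.22 with one of the median signal (adjusted p = 0.119), and the call was lost in 10 of the 20 alternative settings. Dkk2 was the only one of 19 Wnt pathway genes called, and the list median was -0.07.

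Other called genes of this group included Kcnj15, a potassium channel (2.01 ± 0.26), Cldn2, a claudin of the leaky proximal tight junction (1.96 ± 0.24), and Gpx3, the secreted glutathione peroxidase made in proximal tubule (2.04 ± 0.24). Cdo1, which oxidizes cysteine, had an interaction of 1.98 ± 0.23, and Glyat, which conjugates glycine, one of 1.87 ± 0.31. Folr1, a folate receptor, and Car2, a carbonic anhydrase, had smaller values of 1.27 ± 0.17 and 1.23 ± 0.14. These 7 were picked from the called genes for their known roles after their values were seen.

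Plagl1, an imprinted zinc finger gene, had the smallest adjusted p of all genes (5.54e-05, limma) but was measured by a probe set marked as prone to cross-hybridization, and so fell outside the naming rule. It lay at 10.99 and 11.02 in cortex tissue, 11.55 and 11.39 in medulla tissue, 6.85 and 6.70 in cortex-derived cells and 10.63 and 10.76 in medulla-derived cells. Plagl1 fell in both regions, with changes of -4.23 in cortex and -0.78 in medulla. Its other 2 probe sets did not pass the brightness criterion, and gave 0.52 and 0.32 against 3.45 ± 0.16 for the one used.

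**Figure D4:**
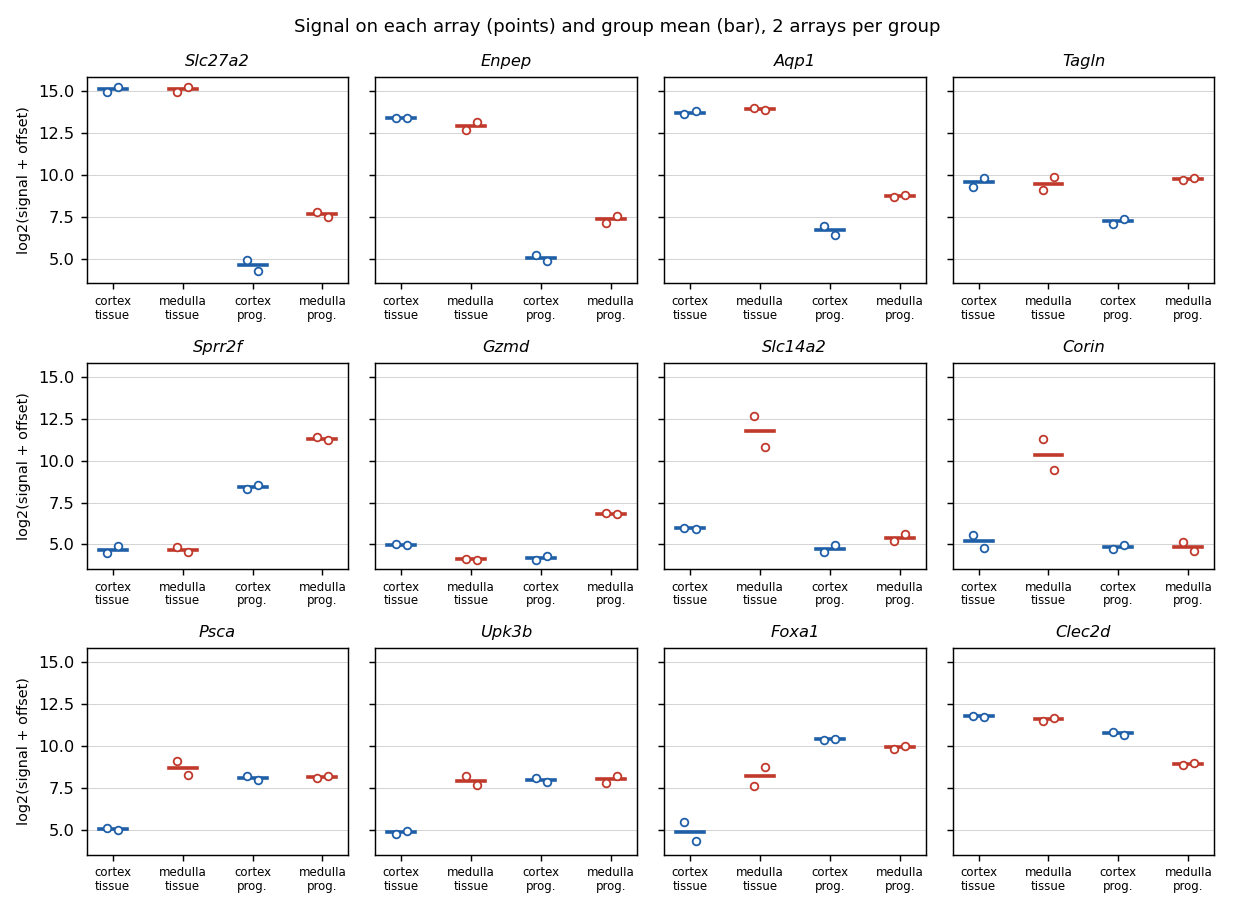
Level of 12 genes, as log2(signal + offset), on each array (points) with the group mean (bars), for cortex in blue and medulla in red, with 2 arrays in each group. Slc27a2, Enpep and Aqp1 differed between regions by more in culture than in tissue, whereas Slc14a2, Corin, Psca, Upk3b and Foxa1 differed by more in tissue.

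The remaining 9 genes with a higher change in medulla did not fall in both regions. Tagln, an actin-binding protein of smooth muscle and of activated mesenchymal cells, was at 9.32 and 9.85 in cortex tissue, 9.09 and 9.89 in medulla tissue, 7.06 and 7.40 in cortex-derived cells and 9.73 and 9.85 in medulla-derived cells. It fell by 2.36 in cortex, while its change in medulla was 0.30 ± 0.27 and did not pass. The interaction was 2.66 ± 0.38 (limma adjusted p = 0.0199). Tagln was the only one of 8 smooth muscle and pericyte genes called, and the mean level of that list was 7.05 and 7.33 in cortex-derived against 7.85 and 7.91 in medulla-derived cells. The 21 fibroblast and mesenchyme genes tested had mean levels of 9.28 and 9.29 against 9.62 and 9.70 on the same arrays, and 0 of them were called in the interaction. The medulla-derived arrays were higher in both lists, and the part of these markers in the Tagln value was not tested. In bulk RNA, fewer cells of a type and less RNA per cell cannot be told apart, here and below.

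Sprr2f, a cornified envelope protein found in squamous and stressed epithelia, rose in both regions but more in medulla. It lay between 4.50 and 4.88 on all 4 tissue arrays, at 8.33 and 8.55 in cortex-derived cells and at 11.38 and 11.25 in medulla-derived cells. The interaction was 2.87 ± 0.33 (limma adjusted p = 0.00868). Sprr1a, of the same family, moved the other way, as described below.

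Gzmd, a granzyme gene, was dim, with 5.03 and 4.94 in cortex tissue, 4.12 and 4.09 in medulla tissue, 4.09 and 4.29 in cortex-derived cells and 6.87 and 6.79 in medulla-derived cells. Only the medulla-derived arrays stood clear of the other 6. Gzmd passed the brightness filter through the medulla-derived arrays alone, so this separation is no support. The interaction was 3.51 ± 0.51 (limma adjusted p = 0.0199), its size depends on the offset, and granzyme genes have close copies that the probe set may share. With an offset of 1 signal unit it was 8.54 and did not pass (adjusted p = 0.0963), and with one of the median signal it was 1.55 and passed. The family member Gzme, chosen after its values were seen, had an interaction of 3.49 ± 0.61 (limma adjusted p = 0.0502) and did not pass.

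Genes with a lower change in medulla included all 14 that were called for region in tissue alone. Their median region difference was 3.20 in tissue and 0.03 in culture. Both values follow largely from the choice of genes, since the class required a call in tissue and none in culture. So does the direction, as 25 of the 26 tissue calls were higher in medulla. Of the 14 genes, 4 fell in medulla and did not pass in cortex, and the other 10 rose in cortex.

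Slc14a2 was of the first kind. Its tissue values given above compare with 5.174 and 5.605 in medulla-derived cells and 4.519 and 4.984 in cortex-derived cells. Slc14a2 fell by 6.37 in medulla, while its change in cortex was -1.22 ± 0.50 and did not pass. The interaction was -5.15 ± 0.71 (limma adjusted p = 0.0162), but the gene's other bright probe set gave 0.12. The 2 probe sets therefore disagree.

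Corin, a protease that activates atrial natriuretic peptide, was at 5.58 and 4.78 in cortex tissue, 11.29 and 9.43 in medulla tissue, 4.73 and 4.96 in cortex-derived cells and 5.14 and 4.61 in medulla-derived cells. Both medulla tissue arrays stood apart from the other 6, and the interaction was -5.15 ± 0.78 (limma adjusted p = 0.0255). Sptssb, a subunit of serine palmitoyltransferase, had the same form. It was at 4.26 and 4.18 in cortex tissue, 8.81 and 9.22 in medulla tissue, and between 4.16 and 5.17 on all culture arrays. Its interaction was -4.72 ± 0.56 (limma adjusted p = 0.00939), and a second bright probe set gave -2.67. Upk1b, a uroplakin measured by a cross-hybridizing probe set, fell by 2.97 in medulla and had a change of 0.30 ± 0.35 in cortex that did not pass. Corin, Sptssb and Upk1b passed the brightness filter through medulla tissue alone, so their separation from the other arrays is no support.

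The genes that rose in cortex included markers of the urothelium. Psca, a surface antigen of urothelium and other lining epithelia, was at 5.098 and 4.997 in cortex tissue and 9.10 and 8.30 in medulla tissue. It was at 8.23 and 7.97 in cortex-derived cells and 8.13 and 8.23 in medulla-derived cells. Only cortex tissue stood apart, as Psca rose by 3.05 in cortex, while its change in medulla was -0.52 ± 0.27 and did not pass. The interaction was -3.57 ± 0.38 (limma adjusted p = 0.00868).

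Upk3b, a uroplakin, followed the same course, with 4.78 and 4.94 in cortex tissue and 8.21 and 7.67 in medulla tissue. It was at 8.11 and 7.86 in cortex-derived and 7.80 and 8.23 in medulla-derived cells, so the culture groups overlapped. Its interaction was -3.05 ± 0.37 (limma adjusted p = 0.00997). Foxa1, a pioneer transcription factor of urothelium and of lung and liver epithelia, rose in both regions. It was at 5.46 and 4.35 in cortex tissue, 7.64 and 8.75 in medulla tissue, 10.40 and 10.42 in cortex-derived cells and 9.86 and 10.01 in medulla-derived cells. Foxa1 rose by 5.50 in cortex and 1.74 in medulla, an interaction of -3.76 ± 0.56 (limma adjusted p = 0.0228).

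Sprr1a, a cornified envelope precursor, was at 6.12 and 6.40 in cortex tissue, 9.01 and 10.62 in medulla tissue, 10.28 and 10.33 in cortex-derived cells and 9.49 and 9.71 in medulla-derived cells. It rose by 4.05 in cortex, its change in medulla was -0.22 ± 0.40, and the interaction was -4.26 ± 0.57 (limma adjusted p = 0.0144). Fxyd3, a regulator of the sodium pump, and Klf5, a zinc finger factor of proliferating epithelia, rose in both regions. Fxyd3 rose by 5.59 in cortex and 2.51 in medulla, and Klf5 by 5.49 and 2.97. Both were chosen after their values were seen.

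Of the urothelium and papilla lining list, 4 of 12 genes tested were called, all lower (Foxa1, Psca, Upk1b and Upk3b), against 0.213% of all genes. Of the 12, 10 were not bright enough in cortex tissue and 4 of these, Upk1b among them, passed the filter through medulla tissue alone. The list was also chosen with earlier results of these data known, so its count and its median difference are no support. With a filter on the mean signal 3 were tested, 1 was called and the median was -0.34. The count was 2 with an offset of 1 signal unit, with no variance trend or with the mean of all probe sets, and 3 with no filter or with all 12 arrays. The mean level of the list was 6.01 and 5.94 in cortex tissue, 7.63 and 8.19 in medulla tissue, 7.99 and 7.91 in cortex-derived cells and 7.92 and 7.75 in medulla-derived cells. Cortex tissue alone stood apart, but the filter favoured this, since 10 of the 12 could enter only through another group. Members that did not pass included Upk3a (-2.76 ± 0.67) and Krt5, a basal keratin (-2.03 ± 0.57). No gene was called without cortex-derived progenitor replicate 1 or medulla-derived progenitor replicate 1. There were 2 without replicate 2 of either progenitor group or without either cortex tissue replicate, and 4 without either medulla tissue replicate.

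Cells of the papilla face high salt and urea, and take up osmolytes. Of 7 genes of urea and osmolyte handling tested, 1 was called, Slc14a2, which passed the filter through medulla tissue alone, as did Slc14a1. With the other Slc14a2 probe set 0 were called, and likewise with an offset of 1 signal unit, a filter on the mean signal, the mean of all probe sets, no variance trend, or without any 1 cortex tissue or progenitor array. More of the 7 were called lower without medulla tissue replicate 2, as were more of all genes, but that fit left medulla tissue with 1 array. Slc14a1, the urea transporter of vessels and urothelium, had an interaction of -2.53 ± 0.75, the inositol transporter Slc5a3 one of -1.13 ± 0.22, and the osmotic stress factor Nfat5 one of -0.81 ± 0.26, and these 3 did not pass with all arrays. The mean level of the list was 9.37 and 9.59 in cortex tissue and 11.53 and 10.76 in medulla tissue. Because the mean includes Slc14a2 and Slc14a1, that gap is no support. On the 4 culture arrays the mean level lay between 9.31 and 9.43, where the groups overlapped.

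Lower changes were also found among genes that differed in culture. Clec2d, a C-type lectin, was at 11.82 and 11.73 in cortex tissue, 11.53 and 11.66 in medulla tissue, 10.84 and 10.68 in cortex-derived cells and 8.89 and 8.99 in medulla-derived cells. Clec2d fell in both regions, with changes of -1.02 in cortex and -2.66 in medulla, and the interaction was -1.64 ± 0.15 (limma adjusted p = 0.00631). Only leaving out medulla-derived progenitor replicate 1 ended this call.

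Irs1, an adaptor of the insulin receptor, changed in opposite directions. It was at 9.60 and 9.67 in cortex tissue, 10.251 and 10.001 in medulla tissue, 10.43 and 10.62 in cortex-derived cells and 9.28 and 9.53 in medulla-derived cells. Irs1 rose by 0.89 in cortex and fell by 0.72 in medulla, an interaction of -1.61 ± 0.20 (limma adjusted p = 0.00997). Afap1l1, an actin filament associated protein, had an interaction of -2.01 ± 0.25, and the mitochondrial calcium-binding protein Efhd1 one of -1.33 ± 0.23, both with a larger fall in medulla.

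Among transcription factors, 2 of 29 renal developmental genes were called, both lower, against 0.213% of all genes. This list too was chosen with earlier results of these data known, so the share is no support. Irx1 lost its call in 11 and Tfap2b in 13 of the 20 alternative settings, and neither passed with an offset of 1 signal unit, no filter, all 12 arrays, no variance trend, or without any single array other than medulla tissue replicate 2. Irx1, a factor of the intermediate nephron segments, was at 9.36 and 9.19 in cortex tissue, 10.41 and 9.86 in medulla tissue, 9.54 and 9.33 in cortex-derived cells and 8.63 and 8.82 in medulla-derived cells. The order of the regions thus turned between tissue and culture on every array, and the interaction was -1.57 ± 0.26 (limma adjusted p = 0.0409). Tfap2b, a factor of the distal nephron, fell in both regions, with changes of -1.78 in cortex and -3.19 in medulla and an interaction of -1.41 ± 0.24 (limma adjusted p = 0.0441). Klf4, the 1 gene called among 20 immediate early genes, rose by 1.95 in cortex and 0.74 in medulla, an interaction of -1.21 ± 0.19 (limma adjusted p = 0.0282), which was lost with no variance trend and without any single array other than medulla tissue replicate 2. More of both lists were called lower without medulla tissue replicate 2, as were more of all genes, but that fit left medulla tissue with 1 array. The immediate early mean level was 8.91 and 8.53 in medulla tissue replicates 1 and 2, against 8.33 and 8.42 in cortex tissue. For the developmental factors it was 9.52 and 9.32, against 9.10 and 9.01. Of 23 Hox genes none passed with all arrays by limma's adjusted test, and the list median was -0.40.

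Few markers of tubule segments were called in the interaction. All 22 proximal convoluted tubule genes tested fell in both regions, with median changes of -7.54 in cortex and -7.07 in medulla, and 0 were called in the interaction (median 0.60). For 3 of the 22 the interval lay within a 2-fold difference, so a like change was not shown for most. The phosphate transporter Slc34a1 had an interaction of 0.60 ± 0.39, Lrp2 one of 0.44 ± 0.32, and Umod, the thick limb's urinary protein, one of -0.71 ± 0.25. All 12 proximal straight tubule genes, 16 intercalated cell genes and 17 fatty acid oxidation genes also fell in both regions, with 0 called in the interaction. For 15 of the 17 fatty acid oxidation genes the interval lay within a 2-fold difference. None of 13 distal convoluted and connecting tubule genes and 8 podocyte genes was called. Scnn1g was the 1 gene called of 14 collecting duct principal cell genes, and Irx1 of 15 thick ascending limb genes. Of 5 thin limb and inner medulla genes, Aqp1 was called higher and Slc14a2 lower, and of these 5 genes 2 rose in each region while 1 fell in cortex and 3 fell in medulla.

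Markers of endothelial and immune cells were lower in culture than in tissue in both regions. The mean level of 18 endothelial genes was at least 8.91 on tissue arrays and at most 6.27 on culture arrays, and that of 15 immune cell genes at least 9.12 and at most 5.78. In neither list was a gene called in the interaction, and the list medians were 0.07 and -0.21. Nor was any of 15 YAP target genes or 15 genes of mesenchymal transition and TGF-beta. Sprr1a was the 1 gene called of 14 basal and squamous epithelium genes.

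Genes that rose in culture were for the most part not called either. Of 26 cell cycle genes, 24 rose in each region, with a median of 4.01 in cortex and 3.97 in medulla, and the interval of the interaction lay within a 2-fold difference for 19. Of 16 cholesterol synthesis genes, 13 rose in cortex and 14 in medulla, with an interval within a 2-fold difference for 13. Of 15 tubular injury and progenitor genes, 14 rose in each region, and the interval was that narrow for 6.

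Of 24 simple epithelium genes 0 were called, although 22 had an estimate below 0 (91.7%, against 51.5% of all genes) and the list median was -0.44. Krt19, a keratin of simple and transitional epithelia, had an interaction of -2.53 ± 0.52 (limma adjusted p = 0.092) and Krt18 one of -1.06 ± 0.19 (adjusted p = 0.055). The cell adhesion molecule Epcam was at 11.36 and 11.76 in cortex tissue, 13.15 and 12.18 in medulla tissue and between 13.06 and 13.34 on all culture arrays. Krt19 was called with the replicate number as a block and without medulla tissue replicate 1, and Krt18 with quantile normalization and without medulla-derived progenitor replicate 2. Some of the 24, Epcam, Krt18 and Krt19 among them, were called lower without medulla tissue replicate 2, as were more of all genes. That fit left medulla tissue with 1 array.

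**Figure D5:**
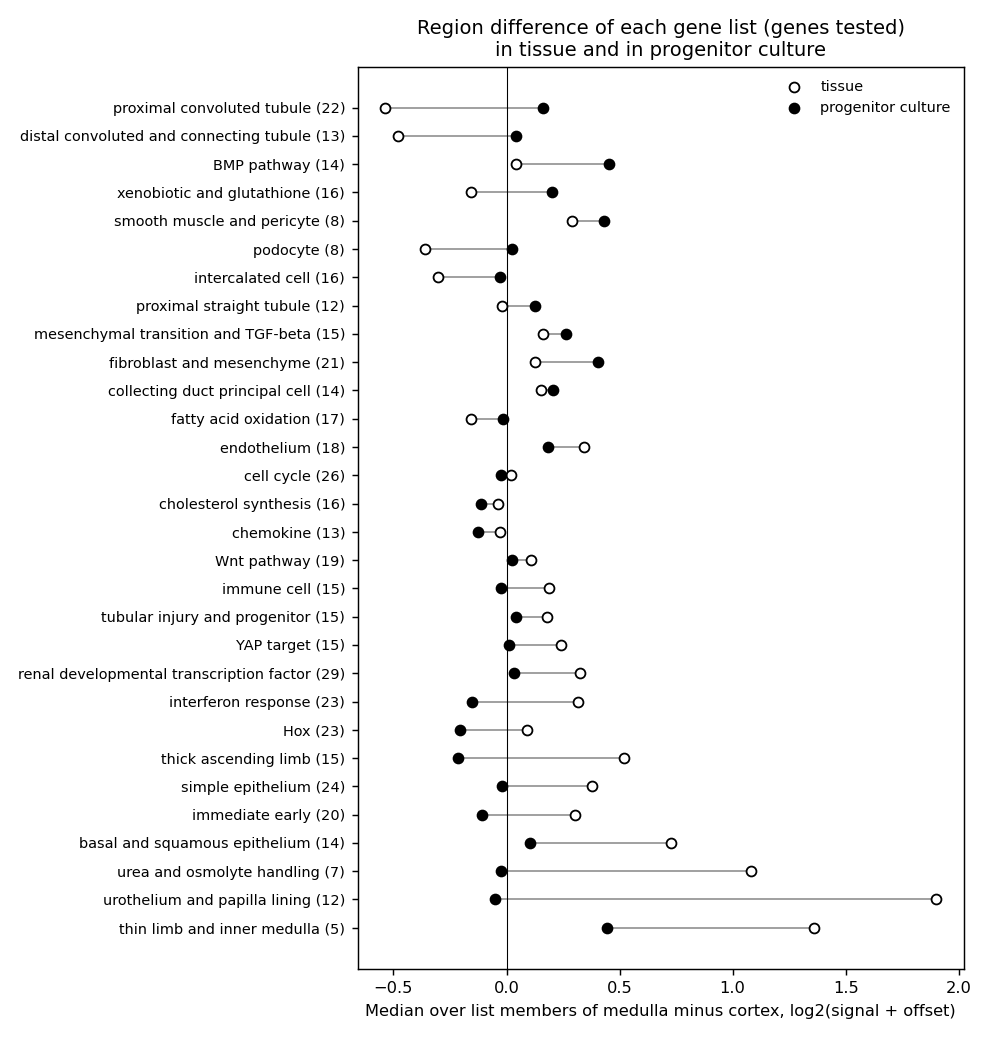
Median medulla minus cortex difference over the tested members of each of 30 gene lists, as log2(signal + offset). Open circles are tissue and filled circles progenitor culture, and the lists are ordered by their median interaction. The urothelium and papilla lining list had medians of 1.90 in tissue and -0.05 in culture, whereas the cell cycle list lay at 0.02 and -0.02. Of the 12 urothelium and papilla lining genes tested, 4 passed the filter through medulla tissue alone, so that gap is no support.

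RNA and labelling controls moved with stage. The medians of the poly-A controls, spiked in before labelling, were 8.96 and 8.76 in cortex tissue, 8.23 and 8.44 in medulla tissue, 7.41 and 7.63 in cortex-derived cells and 7.49 and 7.47 in medulla-derived cells. They moved with region in tissue but overlapped between regions in culture. The 3′ minus 5′ difference of beta-actin was at most 0.19 in culture, 1.11 and 1.26 in cortex tissue, and 0.94 and 1.63 in medulla tissue. Medulla tissue replicate 2 had the highest value. The part of these differences in the interaction was not tested.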

How the data were processed

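Signals came from MAS5, per the submitters' processing notes, version not given in the sources used here. Log2 signals for 45101 probe sets were deposited by the authors, each array scaled so that its mean unlogged signal, trimmed by 2% at each end, was 500. Of these, 34958 carried 1 gene symbol, 932 several and 9211 none, and 34754 matched a current gene by gene ID. The values were unlogged, an offset of 16.5 signal units (25th percentile) was added, and log2 was taken, which shrinks differences of dim genes. Each gene was represented by its brightest probe set, on average over the 8 arrays. Genes were tested when both arrays of any group exceeded their array medians.

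All 4 groups entered 1 limma model (R 4.3.3, limma 3.58.1) with a mean-variance trend, 4 residual degrees of freedom and a median of 5.11 prior degrees of freedom, tested on simulated data. P-values, all two-sided, were adjusted by Benjamini-Hochberg across the 12696 genes and called under 0.05. SE is the model's standard error. Replicates measure only the spread between these arrays, and 2 arrays a group limit the precision. The organoid arrays entered only an alternative fit.

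Members and the 30 gene lists were chosen with earlier results of these data known. No probe set named 38 list genes alone, so these were not analysed here. Genes were named when called, changed by at least 2-fold and separated on every array: the 5 largest each way, the 4 largest each way per class, and up to 4 per list, passing over probe sets marked as cross-hybridizing. Another 21 markers were followed whether they changed or not. MAS5 detection calls were not used here. Alternatives covered the scaling, offset, brightness filter, probe set, arrays fitted, variance model, replicate number as a block and each array left out. The counts per gene list under each alternative, and those of higher calls that fell in both regions, were added after seeing the data. Equal replicate numbers did not deviate together (correlations between -0.15 and 0.06), so they were treated as numbers only.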

Additional observations from a re-analysis of the deposited data

Results flagged for a closer look

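The change from tissue to culture differed between regions, by the test of the interaction itself, for 67 genes. Those named by rule were, with a higher change in medulla, Gzmd (3.51), Slc27a2 (3.04), Sprr2f (2.87), Enpep (2.79), Tagln (2.66), Dkk2 (2.41), Aqp1 (1.83) and Scnn1g (1.77), all as log2 differences between changes. With a lower change in medulla they were Slc14a2 (-5.15), Corin (-5.15), Sptssb (-4.72), Sprr1a (-4.26), Foxa1 (-3.76), Psca (-3.57), Upk3b (-3.05), Afap1l1 (-2.01), Clec2d (-1.64), Irs1 (-1.61), Irx1 (-1.57), Tfap2b (-1.41), Efhd1 (-1.33) and Klf4 (-1.21).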

How the results depend on the processing

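The 22 genes named by rule that passed kept their direction under every setting in which they were tested, except that Slc14a2 turned to 0.12 with the probe set chosen by its mean over 12 arrays. Of the single-gene values under alternatives, 655 kept their side of the threshold, 147 no longer passed and 3 newly passed. The 655 include followed markers that passed in no setting, and some of these changed sign. Sox9 ranged from -0.43 to 1.08 and Slc12a1 from -0.68 to 0.04. With all 12 arrays in 1 fit the interaction passed for 37 genes, the tissue region difference for 44, the culture region difference for 42, and 24 were called in culture alone. With no variance trend the interaction passed for 22 genes, with 8 called in tissue alone and 13 in culture alone. With an offset of 1 signal unit 8 were called in tissue alone. With an offset of the median signal 2 were called in both with opposite sign, and 39 intervals lay wholly outside a 2-fold difference, against 77. With a filter on the mean signal 8 were called in tissue alone, the tissue region difference passed for 11 genes and 38 intervals lay outside. With the replicate number as a block 67 genes passed, 61 of them the same, and the labels do not say that equal numbers share an animal. Leaving out 1 array in turn gave 3 to 568 genes for the interaction, 8199 to 9633 for the cortex change, 8294 to 9174 for the medulla change, 12 to 905 for the tissue region difference and 39 to 165 for the culture region difference. It gave 0 to 418 genes called in tissue alone, 3 to 70 in culture alone, 0 to 17 in both with opposite sign, and 64 to 187 intervals outside a 2-fold difference. The cause of these shifts was not tested. The 75th percentile scaling moved the median cortex change of all genes from 0.05 to -0.07, and the median interaction from -0.01 to 0.02. Signals near background and 2 arrays a group limit what could be called.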

Other observations

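Genes of bone morphogenetic protein signalling, which patterns the nephron and opposes fibrosis, had a median medulla minus cortex difference of 0.45 in culture and 0.04 in tissue over 14 genes. None passed limma's adjusted test of the culture region difference or of the interaction, where 2 of the 14 had an estimate below 0, against 51.5% of all genes tested, and the median was 0.40. Fibroblast and mesenchyme and smooth muscle lists also had higher mean levels on the medulla-derived arrays, and their part in these values was not tested. The ligands Bmp4 (0.97 ± 0.34) and Bmp6 (1.58 ± 0.68) and the target Id3 (0.51 ± 0.17) were among them. The 16 xenobiotic and glutathione genes had a median of 0.40, with 4 estimates below 0 and 0 called. Gsta3, a glutathione transferase, was called higher with 75th percentile scaling, an offset of the median signal or the replicate block, and without cortex tissue replicate 2 or medulla tissue replicate 2.

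Of 13 chemokine genes, 9 rose and 3 fell in each region, with medians of 1.66 in cortex and 2.25 in medulla, and 0 were called in the interaction. Of 23 interferon response genes 0 were called with all arrays, and 20 had an estimate below 0, against 51.5% of all genes. Some were called lower without medulla tissue replicate 2, as were more of all genes, but that fit left medulla tissue with 1 array. The mean level of the list was 9.02 and 8.66 in medulla tissue replicates 1 and 2, against 8.42 and 8.60 in cortex tissue.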
